A study of Homo sapiens with 6 samples.

Results

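The 9 genes described here encode JAK1, a tyrosine kinase bound to cytokine receptors, the transcription factors STAT2, STAT3 and STAT6, and the interferon regulatory factors IRF1, IRF2, IRF3, IRF7 and IRF9. They were chosen by gene symbol, and all 9 were found among the 26255 symbols for which the authors deposited a value per library. The value is an FPKM, the number of sequenced fragments per kilobase of transcript, scaled to the size of the library, so that levels can be set side by side between genes. The RNA came from the colorectal carcinoma cell line HCT116, an established human line. The series title says that the cells were transduced with the degron of ornithine decarboxylase, and the labels divide them into 3 libraries negative and 3 libraries positive for fluorescence of the protein ZsGreen. The labels give both groups the same cell line and no treatment, time point or genotype beyond this. Nothing states that libraries came from separate cultures, so that every p-value reflects the variation among these 6 libraries alone, and that variation may be technical.

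Cytokines and interferons act through receptors that have no kinase of their own and borrow JAK kinases. JAK1 is the member of that family used by the widest range of receptors, among them those of type I, II and III interferons and those built on the gp130 chain. Activated JAKs phosphorylate STAT proteins, which then enter the nucleus. STAT2 and IRF9 act together in the complex ISGF3, which binds interferon-stimulated response elements. STAT3 mainly serves the interleukin-6 family and STAT6 serves interleukins 4 and 13. IRF3 is made constitutively and is activated by nucleic acid sensors, whereas IRF7 is itself induced by interferon in most cells. IRF1 activates and IRF2 mostly represses genes through the same DNA element. In epithelial cells these factors set the basal level of antiviral and antigen presentation genes.

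Depth is not given with FPKM values. In single-transcript genes the lowest values fell on a regular step in the 3 ZsGreen-negative libraries and in ZsGreen-positive replicate 1, which gave an estimated depth, in units of 1000000 fragments, of 10.2 to 10.7 and of 13.5. At this depth 1 FPKM stands for about 10.2 to 13.5 fragments per kilobase. In ZsGreen-positive replicates 2 and 3 no step was found by the same search, which covered only a limited range of depths. Its fullest interval held 5 genes in each of them, against 39 to 90 in the other 4 libraries. Their depth is thus unknown and may lie outside that range, and the fragments per FPKM given above may not hold for them. These libraries also listed the most genes at 0, with 11624 and 11989 against 8985 to 10314 in the other 4. For this reason values from a fit that keeps ZsGreen-positive replicate 1 and drops the other two positive libraries, called replicate 1 alone, are given beside the results. The spread in that fit comes from the negative libraries only, so its p-values are not given. Correlations of log2(FPKM + 1) across genes were 0.986 to 0.988 within the negative, 0.967 to 0.970 within the positive group and 0.844 to 0.857 between groups. Sample titles follow a different naming scheme in each group, and handling and fluorescence cannot be told apart where they differ together. In bulk RNA, fewer cells of a kind and less RNA per cell cannot be told apart either. Of the 8 markers of colon epithelium, 2 were called higher and 3 lower in ZsGreen-positive cells, 2 did not pass and 1 was not tested. EPCAM was at 126 to 133 FPKM in the negative and 138 to 152 FPKM in the positive libraries, KRT19 at 1076 to 1085 and 1012 to 1147 FPKM, KRT8 at 1499 to 1544 and 1083 to 1206 FPKM, and KRT18 at 1486 to 1526 and 873 to 1051 FPKM. CDH1, the gene of E-cadherin, was at 49.5 to 50.4 and 16.5 to 19.0 FPKM. The intestinal markers were low, with CDX2 at 4.16 to 4.86 and 5.87 to 8.16 FPKM, KRT20 at 2.72 to 3.73 and 2.73 to 6.54 FPKM, and VIL1 at or under 0.0377 FPKM. The leukocyte gene PTPRC stayed at or under 0.0404 and CD3E at 0. Summed FPKM of the 8 leukocyte markers ranged from 5.36 to 7.20 in the negative and from 3.17 to 8.67 in the positive libraries. It ranged from 2.35 to 2.54 and from 0.731 to 1.19 for the 6 fibroblast markers, with COL1A2 and DCN at 0. The 4 endothelial markers summed to 0.107 to 0.142 and 0.171 to 0.310. Genes of small RNAs held 38.7% to 39.5% of the summed FPKM in the negative and 48.1% to 50.1% in the positive libraries, and the sums themselves were 1814655 to 1840483 and 1468235 to 1767785. The part of these differences in the results was not tested, apart from the rescalings given below.

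The comparison of ZsGreen-positive with ZsGreen-negative cells asked which of these signalling genes differ in level. Of the 9 genes, 6 were lower in ZsGreen-positive cells (JAK1, STAT2, STAT3, IRF1, IRF7 and IRF9), 2 were higher (STAT6 and IRF3) and 1 did not pass (IRF2). The limma package was used on log2(FPKM + 1), taking the 12213 genes that averaged at least 1 FPKM, with a threshold of 0.05 on the Benjamini-Hochberg adjusted p, and all 9 genes were among those tested. Of all tested genes 59.4% passed, 29.4% higher and 30.0% lower, and of the 4537 that averaged 10 to 50 FPKM 69.1% did. Genes that were higher made up 49.5% of those that passed, 62.1% after rescaling all libraries to an equal sum, and 77.4% after rescaling without small RNA genes, which moved the median of all tested genes from 0.0040 to 0.37. For 8 of the 9 genes every library of one group lay above every library of the other, against 67.6% of all tested genes. The median log2 fold change, positive minus negative, was -1.07 over the 9 genes and 0.0040 over all tested genes. IRF7, IRF9 and IRF1 lay far out in that distribution, since only 0.360%, 0.737% and 0.942% of tested genes had a lower log2 fold change. STAT2, at 28.5%, and IRF2, at 32.3%, lay within its bulk.

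**Figure D1:**
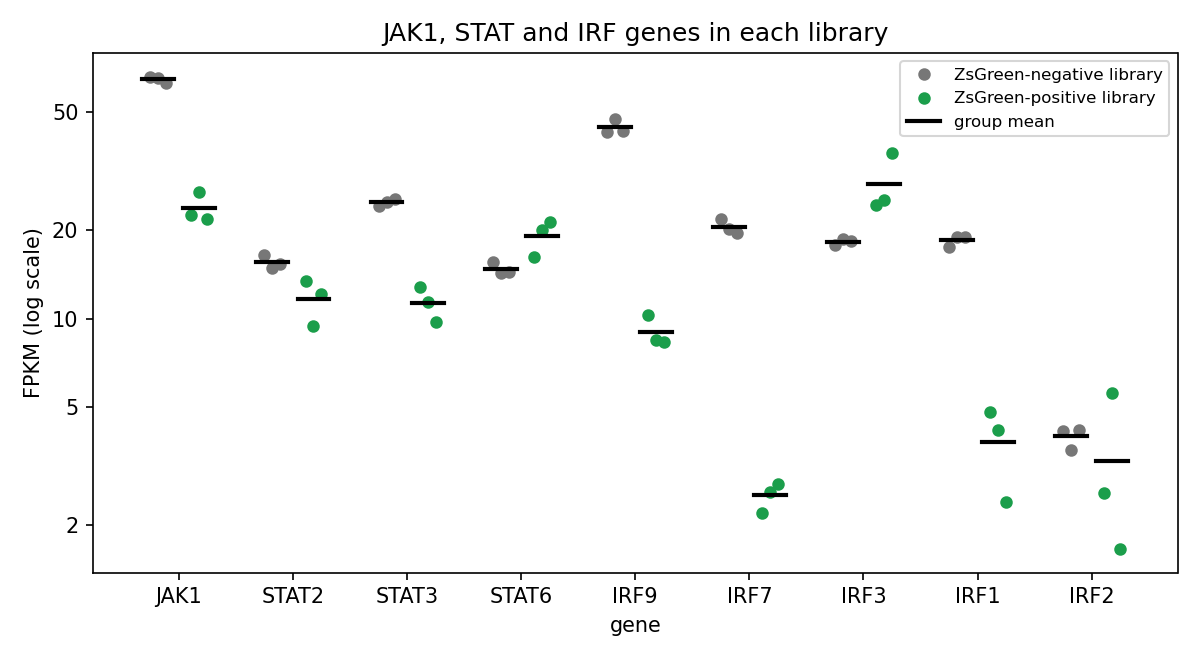
FPKM on a log axis of the 9 genes in each library, with grey points for the 3 ZsGreen-negative libraries, green points for the 3 ZsGreen-positive libraries and black lines for group means. The points of the groups are apart for every gene except IRF2, whose positive libraries lie on either side of the negative ones.

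JAK1 had the highest FPKM of the 9 genes in each ZsGreen-negative library. It was at 66.2, 65.5 and 63.0 FPKM in ZsGreen-negative and at 22.4, 26.8 and 21.8 FPKM in ZsGreen-positive replicates 1 to 3. Every positive library was thus less than 50% of every negative one. JAK1 fell from 64.9 ± 1.64 to 23.7 ± 2.73 FPKM (SD, n = 3 each), which is a 2.74-fold lower mean. The log2 fold change was -1.42 ± 0.0876 (SE; adjusted p = 1.26e-05), and with ZsGreen-positive replicate 1 alone it was -1.49. Of the related kinases, TYK2, which pairs with JAK1 at type I interferon receptors, went the other way, from 6.92 ± 0.178 to 9.47 ± 0.707 FPKM, a log2 fold change of 0.40 ± 0.0925 (adjusted p = 0.00743). JAK2 (3.14 ± 0.409 against 2.13 ± 0.518 FPKM) and JAK3 (1.05 ± 0.0710 against 1.28 ± 0.522 FPKM) did not pass.

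IRF9 and STAT2, which act in ISGF3, were both lower in ZsGreen-positive cells, with log2 fold changes of -2.18 and -0.40. IRF9, which gives the complex its DNA specificity, had 42.9, 47.4 and 43.3 FPKM in ZsGreen-negative replicates 1 to 3 and 10.3, 8.45 and 8.37 FPKM in ZsGreen-positive replicates 1 to 3. All 3 positive libraries were close together and far below the negative ones. IRF9 fell from 44.5 ± 2.52 to 9.04 ± 1.09 FPKM, a 4.92-fold lower mean (log2 fold change -2.18 ± 0.0968, adjusted p = 3.29e-06), and the log2 fold change was -2.01 with ZsGreen-positive replicate 1 alone. STAT2, which carries the activation domain of the complex, was at 16.5, 14.8 and 15.3 FPKM in the negative and at 13.4, 9.41 and 12.1 FPKM in the positive libraries. The groups did not overlap, but the lowest negative and the highest positive library were close. STAT2 fell from 15.5 ± 0.860 to 11.6 ± 2.03 FPKM, a log2 fold change of -0.40 ± 0.129 (adjusted p = 0.0305). This call was lost on leaving out any negative library, and the log2 fold change was -0.20 with ZsGreen-positive replicate 1 alone. The direction turned (0.0058, adjusted p = 0.968) when libraries were rescaled to an equal sum without small RNA genes.

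The ratio of STAT2 to IRF9 within a library does not depend on scaling between libraries when no pseudocount is added. It was 0.385, 0.313 and 0.353 in ZsGreen-negative and 1.30, 1.11 and 1.45 in ZsGreen-positive replicates 1 to 3. STAT2 messenger RNA was thus below IRF9 in every negative and above it in every positive library. On the log2(FPKM + 1) scale the ratio was 1.79 higher in ZsGreen-positive cells. An exact permutation test over libraries, two-sided, gave p = 0.1, the smallest that 3 against 3 can give, and p = 0.1 after adjustment over the 4 ratios compared here.

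Promoter sequences were taken from RefSeq (GRCh38.p14), while the deposited values rest on the build hg19, so that they serve here only to show sequence. The table held entries for 6 of the 9 genes, JAK1, STAT2, STAT3, STAT6, IRF1 and IRF9. The 250 bases before the annotated start are shown for IRF9 and IRF1, which fell strongly, and for STAT2, which fell little, from 5′ to 3′ in the direction of the gene. Capitals mark matches on either strand to TTCNNNGAA, the spacing that STAT dimers bind, to GAAA followed by any pair of bases and GAAA, the tandem motif of IRF proteins, and to GAAACT, a core of that motif.
IRF9, chr14:24161015-24161264, plus strand: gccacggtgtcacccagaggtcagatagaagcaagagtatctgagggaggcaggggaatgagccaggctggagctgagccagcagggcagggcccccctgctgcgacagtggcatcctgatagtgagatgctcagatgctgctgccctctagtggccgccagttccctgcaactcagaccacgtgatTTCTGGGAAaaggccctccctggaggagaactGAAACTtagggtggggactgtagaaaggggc
IRF1, chr5:132490774-132491023, minus strand: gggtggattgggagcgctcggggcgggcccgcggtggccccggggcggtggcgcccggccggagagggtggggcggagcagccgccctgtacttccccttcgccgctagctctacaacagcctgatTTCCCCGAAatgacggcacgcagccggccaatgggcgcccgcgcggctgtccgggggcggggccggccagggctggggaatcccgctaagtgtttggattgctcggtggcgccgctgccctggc
STAT2, chr12:56360108-56360357, minus strand: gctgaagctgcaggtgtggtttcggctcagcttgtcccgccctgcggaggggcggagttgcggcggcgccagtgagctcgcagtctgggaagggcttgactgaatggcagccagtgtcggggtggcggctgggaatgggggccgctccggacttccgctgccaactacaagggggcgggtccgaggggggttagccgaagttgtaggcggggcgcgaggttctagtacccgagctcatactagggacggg
The IRF1 window held TTCCCCGAA, beginning 124 bases before the start. The IRF9 window held TTCTGGGAA beginning 63 bases and GAAACT beginning 31 bases before the start. No match to the 3 patterns was found in the windows of STAT2, STAT3 and STAT6, and of 3 windows of JAK1 only 1 held the reverse complement of GAAACT. Among all 35116 promoter windows of this length, TTCNNNGAA occurred in 6.57%, the tandem motif in 3.02% and GAAACT in 12.6%. The patterns were picked after the sequences were seen, and a match is a string of letters, not a shown binding site.

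IRF7 had the largest difference of the 9 genes, while IRF3, its partner downstream of nucleic acid sensors, was higher in ZsGreen-positive cells. IRF7 was at 21.7, 20.1 and 19.6 FPKM in ZsGreen-negative and at 2.2, 2.59 and 2.76 FPKM in ZsGreen-positive replicates 1 to 3. The positive libraries lay close together here. IRF7 fell from 20.4 ± 1.13 to 2.52 ± 0.288 FPKM, an 8.12-fold lower mean. Its log2 fold change of -2.61 ± 0.102 (adjusted p = 2.12e-06) understates this because of the added 1, and it was -2.74 with ZsGreen-positive replicate 1 alone. IRF3 was at 17.8, 18.6 and 18.3 FPKM in the negative and at 24.2, 25.3 and 36.5 FPKM in the positive libraries. All positive libraries lay above all negative ones, and ZsGreen-positive replicate 3 lay well above the other two. IRF3 rose from 18.2 ± 0.427 to 28.7 ± 6.81 FPKM, a log2 fold change of 0.60 ± 0.149 with adjusted p = 0.0102. It rose by 0.39 with ZsGreen-positive replicate 1 alone. BCL2L12, whose RefSeq gene model overlaps that of IRF3, also rose, from 8.92 ± 0.670 to 15.2 ± 3.79 FPKM (adjusted p = 0.0127). The library kit keeps strand, but whether the authors counted by strand is not given in the sources used here, and the part of shared reads in these values was not tested.

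IRF7 stood at 1.22, 1.08 and 1.07 times the FPKM of IRF3 in ZsGreen-negative replicates 1 to 3. In ZsGreen-positive replicates 1 to 3 it stood at 0.0908, 0.102 and 0.0756 times. The levels of these genes were therefore nearly equal in negative cells and about an order of magnitude apart in positive cells. The log2 ratio, with 1 added to each FPKM, differed by -3.21 between groups (two-sided exact permutation p = 0.1, the lowest this design allows, and 0.1 after adjustment).

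IRF1, an activator that is itself induced by interferon gamma, was at 17.5, 18.9 and 18.9 FPKM in ZsGreen-negative and at 4.84, 4.20 and 2.38 FPKM in ZsGreen-positive replicates 1 to 3. The negative libraries were within 10% of each other, and the positive ones spread by more than 2-fold. IRF1 fell from 18.4 ± 0.810 to 3.81 ± 1.27 FPKM, a 4.84-fold lower mean (log2 fold change -2.05 ± 0.197, adjusted p = 0.000103). With ZsGreen-positive replicate 1 alone the log2 fold change was -1.73. IRF2, which occupies the same element and antagonises IRF1, had the lowest FPKM of the 9 genes in the negative libraries. It was at 4.16, 3.59 and 4.21 FPKM there and at 2.57, 5.62 and 1.66 FPKM in the positive libraries, so that the groups overlapped. The log2 fold change of -0.32 ± 0.311 (adjusted p = 0.398) had a 95% interval from -1.06 to 0.41, which leaves room for a 2-fold fall. The same rescaling without small RNA genes gave 0.013. Without ZsGreen-positive replicate 2 the log2 fold change was -0.69 (adjusted p = 0.0129), and with replicate 1 alone it was -0.48.

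The ratio of IRF1 to IRF2 was 4.20, 5.28 and 4.48 in ZsGreen-negative and 1.88, 0.747 and 1.44 in ZsGreen-positive replicates 1 to 3. Activator messenger RNA thus exceeded repressor messenger RNA at least 4-fold in every negative library. It exceeded it by less than 2-fold in ZsGreen-positive replicates 1 and 3 and was below it in replicate 2. On the log2 scale with 1 added, the ratio differed by -1.73 between groups (two-sided exact permutation p = 0.1, the lowest this design allows, and 0.1 after adjustment), and by -1.26 with ZsGreen-positive replicate 1 alone.

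**Figure D2:**
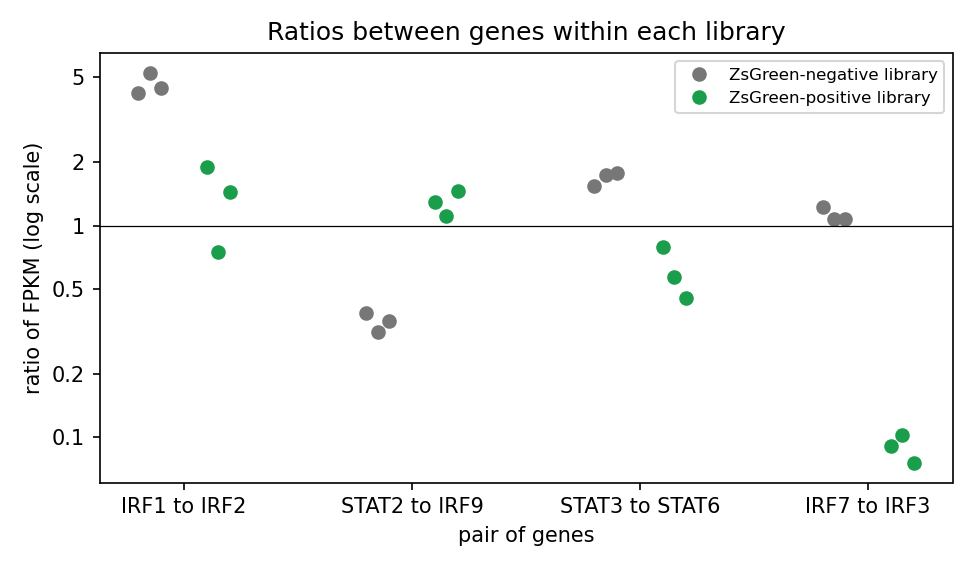
Ratio of FPKM within each library, on a log axis, for the pairs IRF1 to IRF2, STAT2 to IRF9, STAT3 to STAT6 and IRF7 to IRF3, with grey points for ZsGreen-negative and green points for ZsGreen-positive libraries. The line marks equal FPKM. For STAT2 to IRF9, STAT3 to STAT6 and IRF7 to IRF3 the groups lie on opposite sides of the line.

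STAT3 and STAT6, which serve different cytokines, moved in opposite directions. STAT3 was at 24.1, 24.8 and 25.4 FPKM in ZsGreen-negative and at 12.8, 11.4 and 9.74 FPKM in ZsGreen-positive replicates 1 to 3. The groups were well apart. STAT3 fell from 24.8 ± 0.665 to 11.3 ± 1.54 FPKM, a 2.19-fold lower mean (log2 fold change -1.07 ± 0.103, adjusted p = 0.000103), and by 0.90 on the log2 scale with ZsGreen-positive replicate 1 alone. STAT6 was at 15.6, 14.3 and 14.4 FPKM in the negative and at 16.2, 19.9 and 21.3 FPKM in the positive libraries. ZsGreen-positive replicate 1 lay just above the highest negative library. STAT6 rose from 14.8 ± 0.741 to 19.1 ± 2.67 FPKM, a log2 fold change of 0.35 ± 0.111 (adjusted p = 0.0297). The call was lost on leaving out any library except ZsGreen-positive replicate 1, and with that library as the only positive one the log2 fold change was 0.13. NAB2, a corepressor gene whose model overlaps that of STAT6, rose from 21.5 ± 0.289 to 32.2 ± 3.20 FPKM (adjusted p = 0.00102), and the limit given for IRF3 on reads shared between overlapping genes holds here too. The ratio of STAT3 to STAT6 was 1.54, 1.73 and 1.77 in the negative and 0.792, 0.572 and 0.456 in the positive libraries. STAT3 messenger RNA was above STAT6 in every negative and below it in every positive library. The log2 ratio with 1 added differed by -1.42 (two-sided exact permutation p = 0.1, the lowest this design allows, and 0.1 after adjustment), and by -1.03 with ZsGreen-positive replicate 1 alone.

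**Figure D3:**
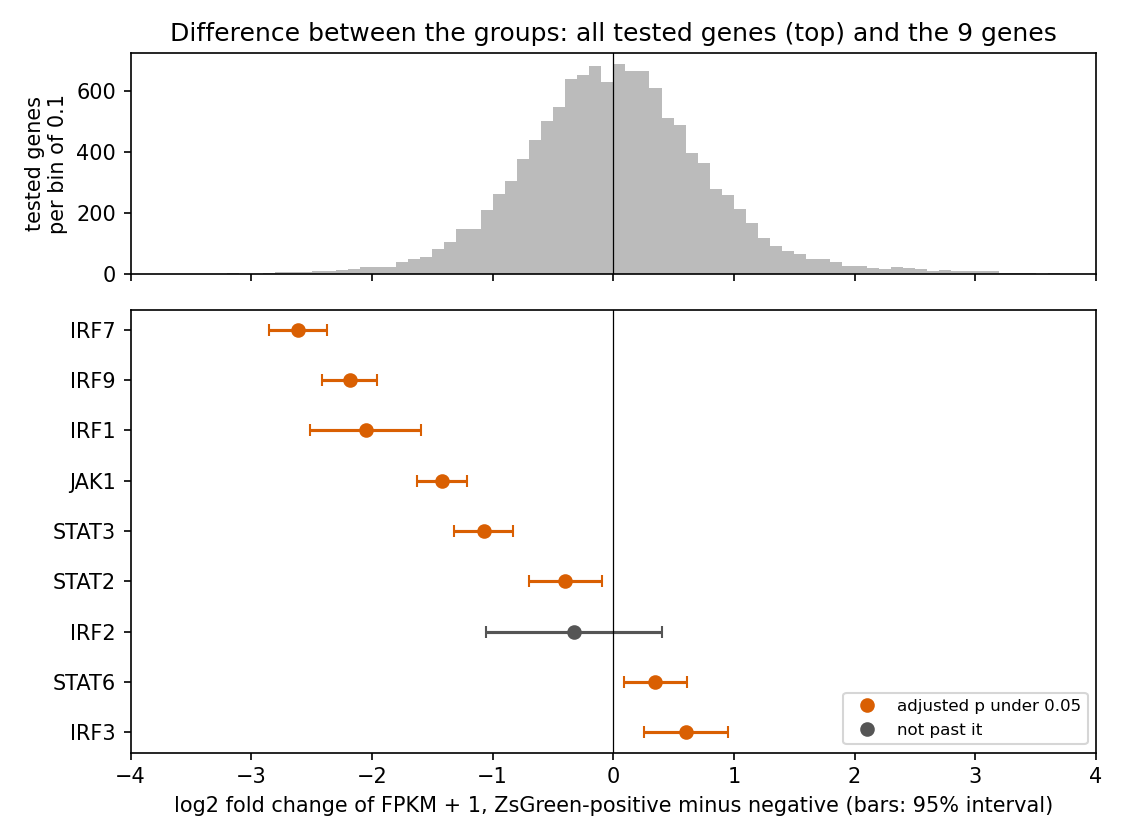
Log2 fold change of FPKM + 1, ZsGreen-positive minus negative, as a histogram of all tested genes between -4 and 4 (top) and for each of the 9 genes with its 95% interval from limma (bottom, orange where the adjusted p was under 0.05). IRF7 at -2.61, IRF9 at -2.18 and IRF1 at -2.05 lie in the far left of the distribution, and the interval of IRF2 spans 0.

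The order of levels was different in the groups. In the ZsGreen-negative libraries JAK1 led, followed by IRF9, STAT3 and IRF7, whose ranges did not overlap with their neighbours'. IRF1 and IRF3 came next with overlapping ranges (18.4 and 18.2 FPKM on average), then STAT2 and STAT6, which overlapped with each other (15.5 and 14.8 FPKM), and IRF2 came last. In the ZsGreen-positive libraries IRF3 had the highest mean, at 28.7 FPKM, but its range overlapped with that of JAK1 at 23.7 FPKM. STAT6 was next at 19.1 FPKM, apart from both neighbours. STAT2, STAT3 and IRF9 followed at 11.6, 11.3 and 9.04 FPKM, each overlapping with the next. IRF1, IRF2 and IRF7 had the lowest means, at 3.81, 3.28 and 2.52 FPKM, again with overlapping ranges.

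Summed over the 9 genes, ZsGreen-negative replicates 1 to 3 had 226, 228 and 222 FPKM, and ZsGreen-positive replicates had 109, 114 and 117 FPKM. The sum was 226 ± 2.97 against 113 ± 3.95 FPKM (two-sided exact permutation p = 0.1). The 5 IRF genes together went from 106 ± 2.61 to 47.3 ± 3.91 FPKM and the 3 STAT genes from 55.1 ± 1.14 to 42.1 ± 1.29 FPKM (exact permutation tests, p = 0.1 each). JAK1 gave 28.4% to 29.2% of the sum in the negative and 18.7% to 23.6% in the positive libraries. The share of IRF3 was 7.86% to 8.22% against 22.2% to 31.3%, and that of STAT6 was 6.27% to 6.89% against 14.9% to 18.3%. The share of STAT2 was 6.5% to 7.28% against 8.28% to 12.3%. The share of IRF9 was 18.9% to 20.8% against 7.17% to 9.46%. The ranges of STAT3 overlapped, with 10.7% to 11.4% against 8.34% to 11.8%.

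**Figure D4:**
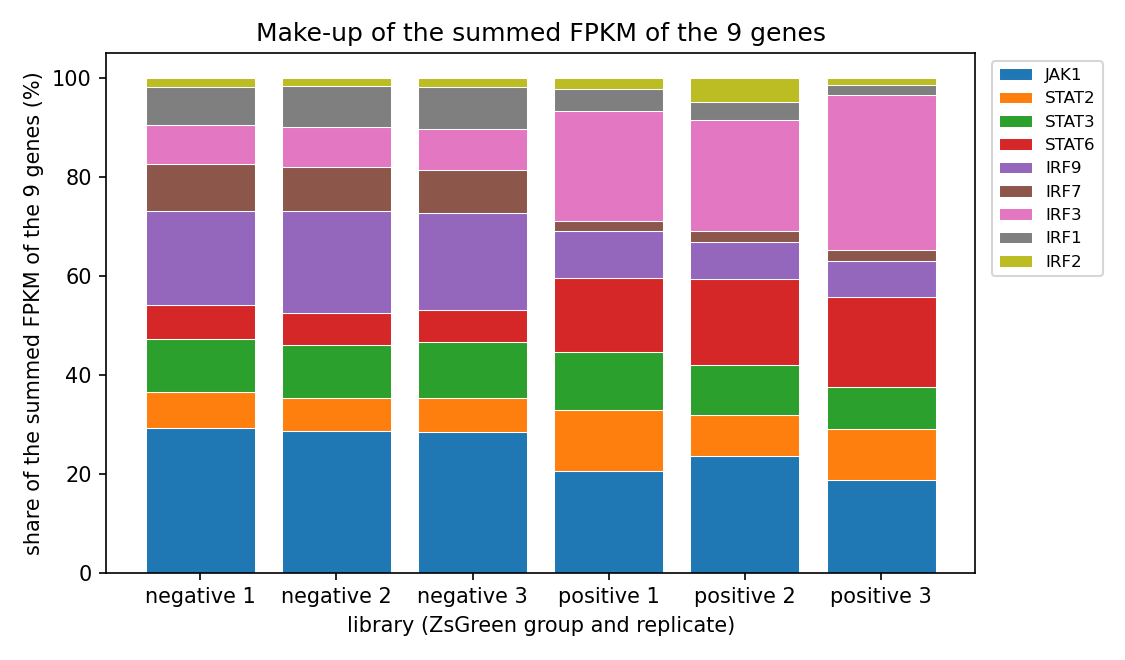
Stacked bars of the percentage that each of the 9 genes gave to their summed FPKM, 1 bar per library, starting at 0. The IRF3, STAT6 and STAT2 segments are larger and the JAK1, IRF9, IRF7 and IRF1 segments smaller in each of the 3 positive bars.

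Around these genes, other parts of the pathway were counted in 10 lists drawn up with earlier results of these data known. Of 109 tested genes outside the 9, each counted once, 74 were lower, 5 were higher and 30 did not pass, with a median log2 fold change of -0.96, beside the 59.4% of all tested genes that passed and their median of 0.0040. Of all tested genes 30.0% were lower and 29.4% higher, and these shares are the background for each list count below. With the filter at a mean of 5 FPKM, 62 genes of the lists were lower and 5 higher. A gene that averaged under 1 FPKM in positive cells, such as IL6R or GBP2, passed the filter only through the negative libraries. Such a gene could only come out lower. Some genes stand on more than 1 list, and no list was tested as a whole.

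Ligands were scarce. Of 19 ligand genes in the files, 16 stayed under 1 FPKM in all 6 libraries, and IL6, IFNG, IL4 and IL22 were listed at 0 throughout. IFNB1, which encodes interferon beta, was listed at 0, 0.743 and 0 FPKM in the negative and at 0.113, 0.327 and 0 FPKM in the positive libraries. Only 2 ligand genes passed the filter, both of the gp130 family, and both fell, although only 1 of them was still called lower under either rescaling to an equal sum. LIF, which encodes leukaemia inhibitory factor, fell from 37.4 ± 0.871 to 27.2 ± 4.26 FPKM and CLCF1 from 6.38 ± 0.581 to 1.69 ± 1.10 FPKM.

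Of 16 tested receptor genes out of 20, 11 fell, 1 rose and 4 did not pass, with a median log2 fold change of -0.64. IL20RB, a chain of receptors for interleukin 20 cytokines, fell from 16.1 ± 1.32 to 1.90 ± 0.702 FPKM, a log2 fold change of -2.58 ± 0.189 (adjusted p = 2.75e-05). IL6ST, which encodes the shared chain gp130, fell from 22.6 ± 0.867 to 6.49 ± 1.41 FPKM, and the interleukin 6 receptor gene IL6R fell from 4.20 ± 0.414 to 0.913 ± 0.575 FPKM. The chains of the interferon receptors were chosen after their values were seen, and differences between them were not tested. IFNGR1 fell from 59.8 ± 2.63 to 24.3 ± 4.17 FPKM, IFNGR2 from 31.1 ± 2.53 to 18.8 ± 3.16 FPKM and IFNAR1 from 8.85 ± 0.224 to 5.64 ± 0.592 FPKM, while IFNAR2 was at 1.89, 2.02 and 1.5 against 3.53, 2.84 and 1.93 FPKM and did not pass (adjusted p = 0.109). Of the chains that form the type III receptor, IL10RB fell from 11.8 ± 0.586 to 9.10 ± 1.63 FPKM (adjusted p = 0.0457), and IFNLR1 was at 3.17 ± 0.411 against 2.85 ± 1.32 FPKM and did not pass.

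Of 5 tested other IRF genes and IRF2 cofactors out of 7, 3 fell, 1 rose and 1 did not pass. IRF2BP2, a corepressor that binds IRF2, fell from 38.6 ± 1.03 to 9.81 ± 1.10 FPKM, a log2 fold change of -1.88 ± 0.0907 (adjusted p = 4.49e-06), while its relative IRF2BP1 rose from 10.7 ± 0.299 to 15.9 ± 0.710 FPKM. IRF8 was listed at 0 in all libraries.

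The list of nucleic acid sensing upstream of IRF3 and IRF7 mixes sensors with adaptors and kinases. It gave 6 lower, 1 higher and 8 not passing of 15 tested out of 19, with a median of -0.15. Of all tested genes 30.0% were lower and 29.4% higher. The balance of the list turned, to 4 lower and 7 higher, on rescaling without small RNA genes. With the filter at a mean of 5 FPKM, 3 of its genes were lower and 1 higher. IFIH1, which encodes the RNA sensor MDA5, fell from 19.8 ± 0.429 to 4.26 ± 0.506 FPKM, a log2 fold change of -1.98 ± 0.0976 (adjusted p = 4.80e-06). TLR3, an endosomal receptor for double-stranded RNA, fell from 5.28 ± 0.0320 to 1.06 ± 0.487 FPKM, and TRIM25, a ubiquitin ligase of RNA sensing, from 44.5 ± 1.22 to 14.8 ± 0.792 FPKM. The gene that rose was MAVS, the mitochondrial adaptor that links RNA sensors to IRF3, from 12.9 ± 0.549 to 17.7 ± 0.254 FPKM, 0.42 ± 0.0722 on the log2 scale (adjusted p = 0.00177). TBK1, the kinase that activates IRF3, was at 29.1 ± 1.93 against 23.5 ± 4.62 FPKM and did not pass.

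Of 17 tested negative regulators of JAK-STAT signalling out of 18, 10 fell, 1 rose and 6 did not pass, with a median of -0.33. Over all tested genes 59.4% passed, 30.0% lower and 29.4% higher. Rescaling without small RNA genes left 6 lower and 3 higher. SOCS3, a feedback inhibitor induced by STAT3, fell from 26.0 ± 0.156 to 11.3 ± 1.17 FPKM, a log2 fold change of -1.13 ± 0.0891 (adjusted p = 3.89e-05). SOCS6 fell from 82.9 ± 1.56 to 30.0 ± 3.83 FPKM. USP18, an interferon-induced inhibitor of type I receptor signalling, fell from 14.6 ± 0.985 to 5.57 ± 0.380 FPKM. The gene that rose was PTPN6, the phosphatase SHP-1, from 16.5 ± 0.802 to 25.5 ± 2.94 FPKM (adjusted p = 0.00157).

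Output genes were mostly lower. Of 12 tested STAT3 targets out of 14, STAT3 itself among them, 8 fell, 0 rose and 4 did not pass, with a median of -1.10. FOS did not pass (71.8 ± 1.27 against 108 ± 41.5 FPKM, adjusted p = 0.0851), although every positive library lay above every negative one. Under either rescaling to an equal sum, and with a replicate block, 1 gene of this list was called higher. The same count came on leaving out ZsGreen-positive replicate 1 or 2. CEBPD, which encodes the acute phase factor C/EBP delta, fell from 22.4, 19.9 and 23.7 to 4.87, 2.79 and 2.21 FPKM, VEGFA from 64.7 ± 0.951 to 28.5 ± 0.859 FPKM, and SERPINA3, which encodes an acute phase protease inhibitor, was at 10.6 to 12.4 against 0 to 1.99 FPKM (adjusted p = 0.000522). Of 32 tested interferon-stimulated genes out of 38, 29 fell, 0 rose and 3 did not pass, with a median of -1.64. With the filter at a mean of 5 FPKM, 25 were lower and 0 higher. EPSTI1, CMPK2 and GBP2 averaged under 1 FPKM in positive cells and passed the filter only through the negative libraries. The summed FPKM over all 38 interferon-stimulated genes was 1999 to 2033 in the negative and 416 to 517 in the positive libraries. ISG15, at 823 ± 16.1 against 183 ± 20.1 FPKM, and IFI6, at 353 against 21.2 FPKM, gave the most to the sum in the negative libraries. The lowest log2 fold changes of FPKM + 1 there, with IFITM1 level with OAS1 at -3.13, were those of IFI27, at 56.8, 42.5 and 47.8 against 5.40, 0.865 and 0 FPKM, of IFI6, from 353 FPKM to 21.2 ± 1.33 FPKM, and of OAS1, a synthetase that activates RNase L, from 20.3 ± 1.48 to 1.63 ± 1.12 FPKM. Of 9 tested output genes of interferon gamma and IRF1 out of 17, 8 fell, 0 rose and 1 did not pass, with a median of -1.05. With the filter at a mean of 5 FPKM, 5 were lower and 0 higher. GBP2 and NLRC5 averaged under 1 FPKM in positive cells, so they could only come out lower. GBP2, a guanylate-binding protein, fell from 3.67 ± 0.178 to 0.304 ± 0.110 FPKM and WARS, the interferon-induced tryptophanyl-tRNA synthetase, from 115 ± 1.36 to 35.0 ± 2.47 FPKM. The light chain of MHC class I, B2M, was at 456 FPKM in positive cells against 1139 FPKM.

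**Figure D5:**
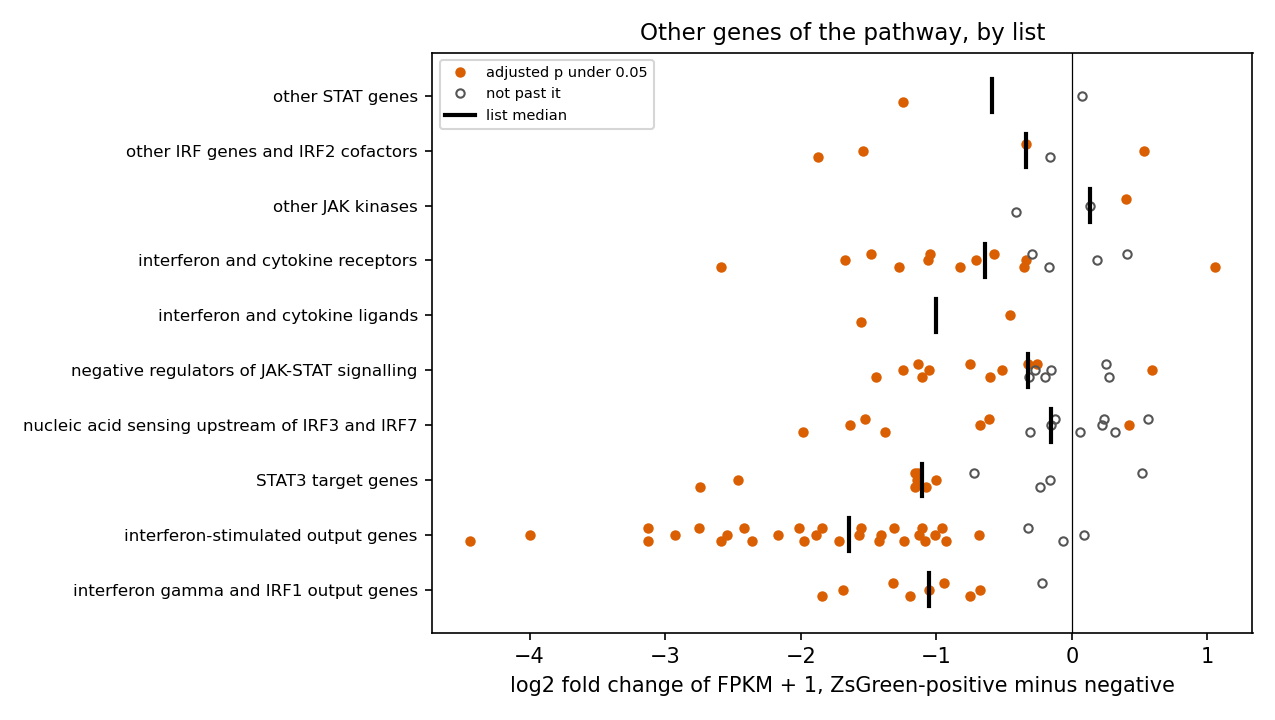
Log2 fold change of FPKM + 1, ZsGreen-positive minus negative, of each tested gene in the 10 pathway lists, filled orange where the adjusted p was under 0.05, open where it was not, with a black bar at the list median. Lists of output genes lie furthest left, with a median of -1.64 for interferon-stimulated genes. The nucleic acid sensing list, which mixes sensors with adaptors and kinases (-0.15), and other JAK kinases (0.13) straddle 0.

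For each of the 9 genes, the tested gene with the highest Pearson correlation of log2(FPKM + 1) over the 6 libraries was taken, as a description only, since the 6 points fall into 2 groups. For IRF7 it was DTX3L, a ubiquitin ligase that is itself on the interferon-stimulated list (r = 0.9997), and 602 genes exceeded 0.99. For JAK1 it was TACC1 (r = 0.99996, 494 genes over 0.99), for IRF9 CNN3 (r = 0.9999, 505 genes), for IRF1 DCAF6 (r = 0.9997, 213 genes) and for STAT3 SARAF (r = 0.9993, 257 genes). STAT2 was most like MKRN1 (r = 0.9994), IRF3 most like CACNB3 (r = 0.998), STAT6 most like ARFGAP1 (r = 0.989) and IRF2 most like LOC101927905 (r = 0.992). For these last 4 at most 12 genes exceeded 0.99.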

How the data were processed

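The authors deposited 1 table per library with FPKM values for 26255 gene symbols. The build was hg19, and Cuffdiff 2.2.1, TopHat2 2.1.1, SAMtools 0.1.18 and Bowtie2 2.2.8 are named, per the submitters' processing notes. The sources used here do not state settings, annotation, strand treatment or scaling between libraries. Per the labels' protocols, RNA was extracted with TRIzol and a miRNeasy kit, and libraries were made with a stranded mRNA kit. FPKM is not a count, so limma 3.58.1 in R 4.3.3 was fitted to log2(FPKM + 1) of all 6 libraries (eBayes with trend, two-sided, 4 residual and 3.22 prior degrees of freedom), over genes with a mean of at least 1 FPKM, and p-values were adjusted over all of them (Benjamini-Hochberg). The fit was tested on simulated data with known changes and equal spread in both groups. That test does not cover the wider spread of the positive libraries seen here. Fold changes on this scale understate the change of low genes. Depth was sought from the modal low product of FPKM and length (less 200 nt) in 2137 single-transcript genes of at least 1000 nt in a GRCh38 annotation. The search covered only a limited range of depths. Exact permutation tests of ratios and sums were run in Python 3.11.15. The genes, lists and rules were chosen with earlier results of these data known. Named were the 9 genes, up to 3 passing genes per list with the largest change (with none passing, the highest mean), and the most alike gene of each member. All other genes with values were picked after these were seen. Some genes that the rule names are not reported here. Alternatives were other pseudocounts, filters and scalings, no trend, a replicate block and left-out libraries. A fit with a lone positive library assumes that it varies like the negative ones.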

Additional observations from a re-analysis of the deposited data

How the results depend on the processing

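JAK1, STAT3, IRF1, IRF3, IRF7 and IRF9 kept their direction and stayed past the threshold in all 17 alternative fits, with adjusted p from 1.5e-06 to 0.0362. With the filter at a mean of 5 FPKM IRF2 was not tested. STAT2 and STAT6 each passed in 10 of the fits with more than 1 positive library. The call of STAT2 was lost with no filter (-0.40, adjusted p = 0.0553) and on rescaling to a sum of 1000000 (-0.22). Its log2 fold change was -0.20 with ZsGreen-positive replicate 1 alone and ranged from -0.50 to -0.26 on leaving out single libraries. The call of STAT6 was lost with upper quartile scaling (0.31). Its log2 fold change was 0.13 with ZsGreen-positive replicate 1 alone, with a leave-one-out range of 0.27 to 0.46. IRF2 was at -0.48 with that library alone, and leaving out single libraries gave -0.69 to -0.034. Rescaling moved the median of all tested genes from 0.0040 to 0.14, and to 0.37 without small RNA genes. Under the latter STAT2 (0.0058) and IRF2 (0.013) changed sign, and 5655 genes were higher and 1650 lower (3590 and 3668 as reported). The share of called genes that were higher was then 77.4%, 62.1% with the plain rescaling and 49.5% as reported. Of the 9 genes, 1 was called higher with upper quartile scaling and on leaving out any library except ZsGreen-positive replicate 1, against 2 at most. Genes of the pathway lists called higher numbered 8 with rescaling, 15 without small RNA genes and 11 with ZsGreen-positive replicate 1 alone, and 4 to 8 with single libraries left out. The log2 ratio of IRF1 to IRF2 was -1.28 with a pseudocount of 5 and -1.26 with ZsGreen-positive replicate 1 alone. STAT2 to IRF9 was 1.51 with a pseudocount of 5, STAT3 to STAT6 was -1.03 with that library alone, and IRF7 to IRF3 was -3.60 and -2.28 with pseudocounts of 0.1 and 5. The cause of these changes was not tested.

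Same-numbered libraries did not deviate together (correlations of deviations from group means -0.0301 to -0.0209). With 3 libraries per group this cannot show whether the numbers pair them. With the replicate block 3433 genes were higher and 3482 lower.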
